A study of Mus musculus with 16 samples.

Results

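The comparison described here is the knockdown of Lox against its scrambled control, in primary mouse lung fibroblasts collected 48 hours after transfection. Its members are all arrays titled scr (4) and siLox (4), 8 of the 16 arrays of the series. The cells were isolated from murine lung, cultured and passaged at least 3 times. Those of the scr group then received a scrambled small interfering RNA (siRNA), and those of the siLox group an siRNA directed against Lox. Mouse strain, age and number of animals, and the sequences of the siRNAs, are not given in the sources used here. The 4 samples of a group are not said to come from separate cultures or animals, so p-values measure the spread between these samples only.

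Lox encodes lysyl oxidase, a secreted copper-dependent amine oxidase that oxidises lysine residues of collagen and elastin so that their chains can be cross-linked. An siRNA is a short duplex that guides the RNA-induced silencing complex to a matching messenger RNA, which is then cut. Fibroblasts are the main source of fibrillar collagen in the lung, and export it through the endoplasmic reticulum (ER) and the Golgi apparatus. Genes of the matrix and of inflammation are left aside below, and the rest of the transcriptome is described. Levels are log2 intensities scaled to the array's 75th percentile, so a level of 0 is that of a fairly bright probe, and differences are log2 fold changes of siLox over scr with their standard error (SE). A gene passed, rose or fell where limma's p-value, adjusted by Benjamini-Hochberg over all genes, was under 0.05.

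The arrays of a group were not alike. The first principal component of the 8 arrays held 69.0% of the variance and placed scr replicate 1 at -58.7, scr replicates 2 and 3 at -25.5 and -29.4 and scr replicate 4 at -0.557, whereas siLox replicates 1 to 3 lay between 29.5 and 38.7 and siLox replicate 4 at 14.1. The 2 scr arrays at the ends of that range correlated with each other at r = 0.988 over the genes tested, while scr replicate 4 correlated with the siLox arrays at r = 0.992 to 0.996. Many genes below show the same order, with scr replicate 4 the nearest control to the siLox arrays. Each group also occupied a slide row of its own, so row and group cannot be told apart. Between 49.2% and 52.3% of the non-control spots of an array were well above background and 0 were saturated. Of the defining fibroblast markers, Col1a1, Col1a2, Col3a1, Pdgfra, Thy1, Vim, Ddr2 and Tcf21 were above background on all 8 arrays, while the epithelial markers Epcam, Cdh1 and Sftpc and the endothelial marker Tek were above background on 0 arrays. The epithelial marker Scgb1a1 and the endothelial marker Cdh5 were above background on 4 scr and 2 siLox arrays. The endothelial markers Pecam1 and Vwf were above background on all 8. The leukocyte markers Ptprc, Cd68, Adgre1, Csf1r and Lyz2 were above background on all 8, as were the mesothelial markers Msln, Upk3b and Wt1.

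Lox, the target of the siRNA, fell. Its level was 4.03, 3.75, 3.72 and 3.56 in the scr arrays and 1.17, 1.47, 1.56 and 2.21 in the siLox arrays. The groups did not overlap, and siLox replicate 4 kept the most Lox. The difference was -2.17 (SE 0.21, adjusted p = 0.00095 with limma, n = 4 per group), which leaves 22.3% of the control level. The second Lox probe gave a difference of -2.92 (SE 0.30). For each probe the exact permutation test (two-sided) returned p = 0.0286, the smallest value that 4 arrays against 4 allow.

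Among the other lysyl oxidases, Loxl2 fell by 0.71 (SE 0.16, adjusted p = 0.0151 with limma) at its brightest probe. The levels there went from 6.80, 6.47, 6.42 and 6.09 to 5.78, 5.51, 5.62 and 6.03. Its dimmer probes gave smaller differences, -0.48 (SE 0.15) and -0.49 (SE 0.15), and their groups overlapped. At these probes siLox replicate 4 was above scr replicate 4, at 4.39 against 4.34 and at 4.99 against 4.92. Loxl1 fell by 0.49 (SE 0.13, adjusted p = 0.0224), from 5.79, 5.60, 5.56 and 5.35 to 4.89, 4.98, 5.10 and 5.38. The Loxl1 groups overlapped, since siLox replicate 4 was above scr replicate 4. Loxl3 differed by -0.04 (SE 0.09) and Loxl4 by 0.12 (SE 0.10) at their brightest probes, and neither passed. A dimmer Loxl4 probe differed by -0.20 (adjusted p = 0.0488 over all probes), with the opposite sign.

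**Figure D1:**
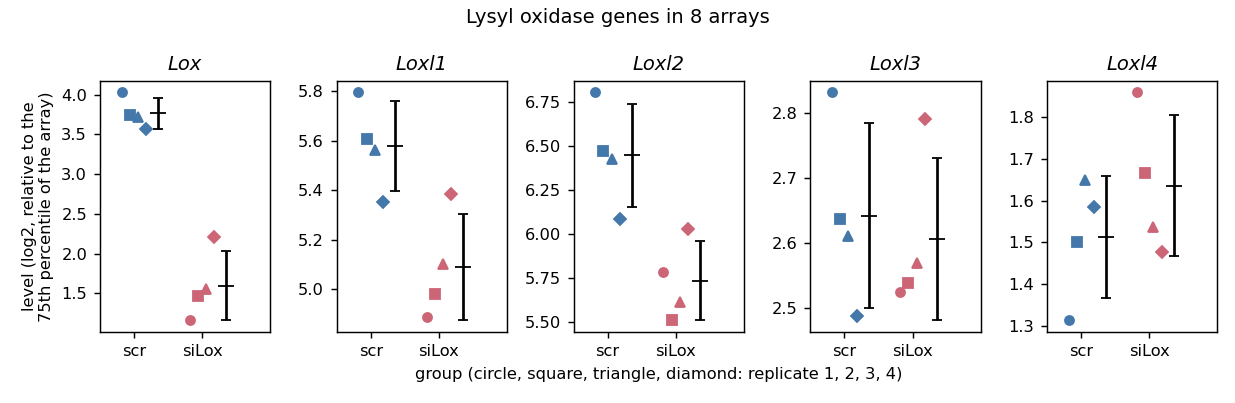
Level of the 5 lysyl oxidase genes in each array (brightest probe, log2 scaled to the array's 75th percentile), with scr in blue, siLox in red, a symbol per replicate number and mean ± SD (n = 4) to the right of each group. Lox falls from between 3.56 and 4.03 to between 1.17 and 2.21 without overlap, and the Loxl3 groups overlap.

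Of 19197 genes tested, 6725 passed (35.0%), 3117 higher (16.2%) and 3608 lower (18.8%) in siLox. The groups did not overlap for 6779 genes (35.3%). Most differences were small: the median size among genes that passed was 0.45, and 564 genes passed with a difference of at least 1, 362 of them higher. The median over all genes was -0.05. Leaving out 1 array at a time gave between 3602 genes (without siLox replicate 2) and 8617 genes (without scr replicate 4). Of the 3602 calls without siLox replicate 2, 3560 were among the 6725, all of them in the same direction.

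Genes of zinc finger proteins rose in large number. Genes with a Zfp symbol encode zinc finger proteins, many of which carry a KRAB domain, bind DNA in a sequence-specific way and recruit the corepressor Trim28 to silence transposable elements and genes. The family was picked after its values had been seen, so its counts are a description. Of 344 Zfp genes tested, 199 rose and 13 fell, against a background of 16.2% and 18.8%, and 132 did not pass. Their median difference was 0.38, against -0.05 for the other 18853 genes, and 286 of 344 (83.1%) had a positive difference, against 43.1% of the others. Of the 199, 176 did not overlap between the groups, as did 5633 of all 6725 genes that passed, and 193 were above background on all 8 arrays. A total of 28 rose by at least 1 (background 1.89%).

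Zfp951 and Zfp458 showed the size of the shift with little spread. Zfp951 was at -2.68, -2.69, -2.66 and -2.50 in scr and at -0.88, -0.86, -0.83 and -1.02 in siLox, a difference of 1.74 (SE 0.07, adjusted p = 4.14e-05 with limma), or 3.33-fold. Zfp458 was at -2.56, -2.65, -2.46 and -2.49 in scr and at -0.70, -0.98, -0.68 and -0.86 in siLox, a difference of 1.73 (SE 0.08). For both genes the distance between the groups was many times the range within either, and scr replicate 4 stayed with the other controls. Zfp960 rose by 1.67 (SE 0.09), from 0.77, 0.95, 0.82 and 1.01 to 2.73, 2.54, 2.61 and 2.37. Zfp931 rose by 1.20 (SE 0.06), Zfp933 by 1.15 (SE 0.07) and Zfp629 by 0.88 (SE 0.06). Together with Prr14l (0.81, SE 0.06) and Rabl2 (0.93, SE 0.07), these 6 were the 8 genes with the smallest p-values among the genes that rose and could be named by the rule. A dimmer Prr14l probe differed by 0.23 (adjusted p = 0.205 over all probes, limma) and a dimmer Rabl2 probe by 0.34 (adjusted p = 0.0931), and neither passed. Zfp184 rose by 1.47 (SE 0.21), and here scr replicate 1 stood lower, at -2.54, than scr replicates 2 to 4, at -1.65, -1.72 and -1.45. Of the Zfp genes that fell, the largest difference was -0.72, for Zfp185, which has an actin-binding role rather than one at DNA, and Zfp91, a ubiquitin ligase, fell by 0.64.

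The shift was spread over the genome. In mm9, the build of the probe positions, chromosome 7 held 85 of the Zfp genes tested, of which 53 rose and 3 fell. On chromosome 13, which carries Zfp458 (probe at 67355915 to 67355974), 29 of 34 rose and 0 fell, with a median difference of 0.71. On chromosome 17, which carries Zfp960 (probe at 17226463 to 17226522), 25 of 41 rose and 0 fell, and on chromosome 8 16 of 22 rose and 0 fell. In contrast, of 5 Zfp genes on chromosome 14 none passed (0 at adjusted p under 0.05 with limma), and of 10 on chromosome 15 3 rose and 1 fell. Zfp genes of a cluster are close copies of each other, and a probe may bind transcripts of several, so single members are uncertain; of the 83 that rose and had more than 1 probe, 76 had a positive difference at every probe. Trim28 itself differed by 0.05 (adjusted p = 0.57) and Setdb1, the histone methyltransferase it recruits, by -0.02 (adjusted p = 0.84); both were looked up after the Zfp values had been seen. Without siLox replicate 1 or 2 or scr replicate 3, 129, 130 and 132 Zfp genes rose, and without scr replicate 4, 239 did. The mean level of the 344 genes was -0.15, 0.04, -0.01 and 0.19 in scr and 0.48, 0.41, 0.43 and 0.34 in siLox, without overlap.

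**Figure D2:**
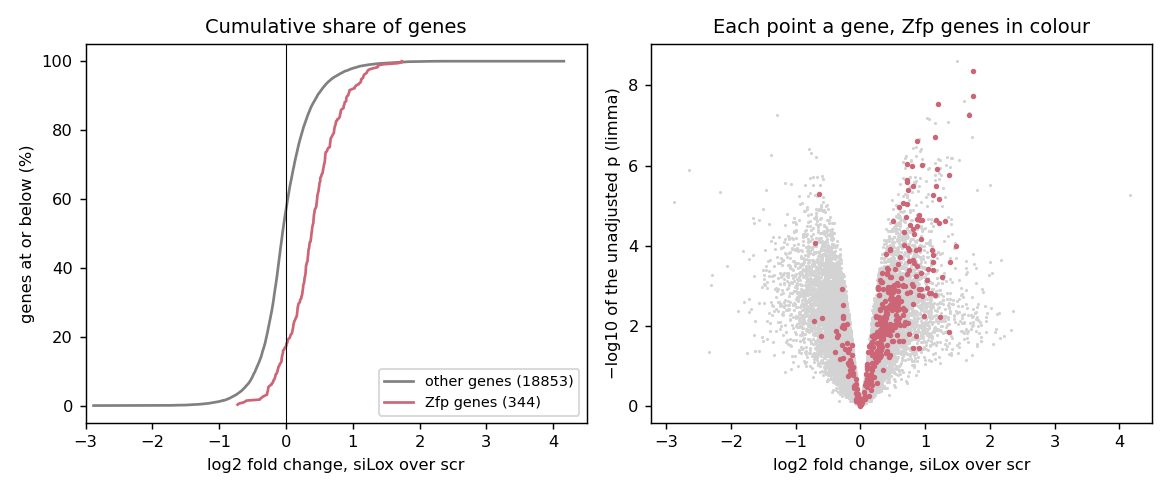
Zfp zinc finger genes against all other genes tested. The left panel gives the cumulative share of genes (%) by log2 fold change for 344 Zfp genes (red, median 0.38) and 18853 other genes (grey, median -0.05), and the right panel each gene's log2 fold change against −log10 of its unadjusted limma p, where Zfp genes lie mostly on the higher side.

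The genes of the small nucleolar RNA hosts (Snhg) rose as well. Snhg genes are spliced noncoding transcripts whose introns release the small nucleolar RNAs that guide modification of ribosomal RNA, and whose spliced product is usually degraded during translation. This group too was picked after its values had been seen. Of 11 tested, 9 rose and 0 fell (background 16.2% and 18.8%), with a median of 0.85. Snhg17 was at 1.39, 2.66, 2.41 and 3.13 in scr and 3.83, 3.59, 3.63 and 3.32 in siLox, a difference of 1.19 (SE 0.33, adjusted p = 0.026 with limma). Snhg5 rose by 1.12 (SE 0.27), Snhg16 by 1.10 (SE 0.29), Snhg1 by 1.01 (SE 0.33) and Snhg12 by 0.96 (SE 0.28). In each of these the control arrays were far apart, with replicate 1 lowest and replicate 4 close to the siLox arrays. A dimmer Snhg16 probe differed by 0.01 (adjusted p = 0.945 over all probes, limma). The number that rose fell to 3 without scr replicate 3 or without siLox replicate 1, 2 or 3, and to 5 without scr replicate 2. The same direction was seen in Mir99ahg, a microRNA host gene (1.20, SE 0.26).

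Genes of ribosome biogenesis, which act in the nucleolus to transcribe, cut and fold ribosomal RNA, moved in one direction. Of 52 tested, 24 rose and 0 fell (median 0.32, background 16.2% and 18.8%). Taf1d, a subunit of the RNA polymerase I selectivity factor, rose by 0.85 (SE 0.23), Rrp8, a nucleolar methyltransferase, by 0.74 (SE 0.15), and Gnl3, the nucleolar GTPase nucleostemin, by 0.68 (SE 0.18). Myc, the transcription factor that drives many of these genes, rose by 0.60 (SE 0.13), from 2.47, 2.79, 2.77 and 3.05 to 3.53, 3.41, 3.33 and 3.18. The mean level of the list was 3.28, 3.54, 3.49 and 3.77 in scr and 3.92, 3.89, 3.86 and 3.77 in siLox, so that scr replicate 4 and siLox replicate 4 met. Without scr replicate 4, 41 rose; without scr replicate 2, 15; without scr replicate 3, 9; and without siLox replicate 1, 2 or 3, 10, with 0 lower in every fit that left out 1 array. Of 76 mitochondrial ribosomal proteins, 13 rose and 4 fell (background 16.2% and 18.8%); 7 or 8 rose without scr replicate 3 or siLox replicate 1, 2 or 3, and 23 without scr replicate 4. Mrpl22 rose by 0.72 (SE 0.09) and Mrpl50 by 0.69 (SE 0.11), whereas Mrpl53 fell by 0.59 (SE 0.05), from between 4.58 and 4.65 to between 3.99 and 4.07.

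Genes of splicing and of messenger RNA decay included more that rose than fell, and those of RNA interference more that fell. Of 54 splicing factors of the SR and hnRNP families, 16 rose and 6 fell, and 9 or 10 rose without scr replicate 3 or siLox replicate 2 or 3. Clk4, a kinase of SR proteins, rose by 1.11 (SE 0.22), Luc7l, a component of the U1 particle, by 0.74 (SE 0.16) and Srsf7 by 0.67 (SE 0.09). Of 46 genes of messenger RNA decay, 10 rose and 5 fell, and between 3 and 6 rose without any array other than replicate 4 of either group. Zc3h12a, the endonuclease Regnase-1, rose by 1.16 (SE 0.29) and Btg1, which activates the deadenylase complex, by 1.10 (SE 0.13), while the deadenylase Cnot8 fell by 0.45 (SE 0.08). A dimmer Btg1 probe differed by 0.30 (adjusted p = 0.163 over all probes, limma). Among 23 genes of the RNA interference machinery, 1 rose and 9 fell, and 5 fell without scr replicate 3. Tnrc6b, a scaffold protein of silencing complexes, fell by 0.77 (SE 0.10), from -0.13, -0.42, -0.38 and -0.66 to -1.20, -1.18, -1.17 and -1.11, and Tnrc6a by 0.74 (SE 0.11). Prkra, a partner of Dicer, fell by 0.50 (SE 0.11). With 35.0% of all genes passing (16.2% higher and 18.8% lower), these 3 lists were called at 40.7%, 32.6% and 43.5%. The list of messenger RNA decay was thus below the share of all genes.

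Members of the circadian clock rose. The clock is a feedback loop in which Clock and Arntl activate genes through E-boxes (CACGTG) and the Per, Cry and Nr1d proteins repress them. Of 18 tested, 8 rose and 1 fell (background 16.2% and 18.8%). Ciart, a repressor of Clock and Arntl, rose by 1.28 (SE 0.42), Nr1d1, the receptor Rev-erb alpha, by 1.19 (SE 0.37), Dbp, an output transcription factor, by 0.95 (SE 0.20) and Bhlhe41 by 0.85 (SE 0.24). Dbp averaged 4.19 ± 0.43 (SD, n = 4) in scr and 5.14 ± 0.13 in siLox, without overlap: the highest scr array was at 4.64. Ciart was at -1.27, 0.34, 0.11 and 0.98 in scr and at 1.49, 1.39, 1.45 and 0.95 in siLox, where siLox replicate 4 lay under scr replicate 4. The number that rose was 3 without scr replicate 3 or any of siLox replicates 1 to 3, 4 without scr replicate 2, and 11 without scr replicate 4.

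E-boxes were searched on both strands in the 250 bases before the transcription start sites of RefSeq (GRCm38.p6). They were present in 6 of 23 promoters of clock genes (26.1%) and in 6.02% of all 32851 promoters. The genes concerned were Bhlhe41, Ciart, Cry1, Per1 and Tef, of which 4 rose (median of the 5, 0.82). Cry1 differed by 0.23 (adjusted p = 0.375 with limma). Over the whole clock list, 8 of 18 rose and 1 fell (median 0.30), and over all genes 16.2% rose and 18.8% fell. Tef rose by 0.76 (SE 0.11) and Per1 by 0.82 (SE 0.22). The promoter of Ciart is shown because Ciart had the largest difference among clock genes with a match and holds 3 of them (capitals), at chr3:95882229-95882478 on the minus strand.
Ciart: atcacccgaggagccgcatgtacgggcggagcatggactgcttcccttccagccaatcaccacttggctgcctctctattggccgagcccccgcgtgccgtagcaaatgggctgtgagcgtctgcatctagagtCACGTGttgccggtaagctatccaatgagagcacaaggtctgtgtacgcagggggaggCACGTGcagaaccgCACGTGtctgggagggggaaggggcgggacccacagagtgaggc
The first E-box begins 116 and the last 44 bases before the start. Among promoters of ribosome biogenesis genes the share was 3.77%, below that of all promoters. A match describes the letters only.

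Genes of the secretory pathway fell. ER chaperones fold new proteins and attach sugars to them, and coat proteins then carry them to the Golgi and back. Of 42 genes of ER folding and N-glycosylation, 21 fell and 2 rose (median -0.25, background 18.8% and 16.2%). Pdia4, a disulfide isomerase, fell by 0.67 (SE 0.13), from 1.83, 1.54, 1.46 and 1.40 to 0.64, 0.83, 0.95 and 1.14. Sdf2l1, a partner of the chaperone BiP, fell by 0.65 (SE 0.19) and Edem1, which marks misfolded glycoproteins for disposal, by 0.59 (SE 0.15). Alg2, a mannosyltransferase of the dolichol pathway, rose by 0.67 (SE 0.08). The number that fell was 4 or 5 without scr replicate 3 or siLox replicate 1, 2 or 3, 10 or 11 without scr replicate 2 or 1, and 26 without scr replicate 4.

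Of 53 genes of transport between ER and Golgi, 27 fell and 4 rose (median -0.27, background 18.8% and 16.2%). Copz2, a subunit of the COPI coat, fell by 0.89 (SE 0.12), from 3.06, 2.89, 3.01 and 2.69 to 1.84, 1.98, 1.96 and 2.31, without overlap. Sec23a, of the COPII coat, which is needed to export collagen from the ER, fell by 0.60 (SE 0.15), and here siLox replicate 4, at 1.29, lay above siLox replicates 1 to 3, at 0.82 to 0.84. Kdelr2, the receptor that returns chaperones to the ER, fell by 0.53 (SE 0.11) and the GTPase Arf5 by 0.53 (SE 0.11). Tmed5, a cargo receptor of the early secretory pathway outside this list, had the smallest p-value of all genes that fell and could be named. It was at 2.72, 2.54, 2.71 and 2.53 in scr and at 1.29, 1.45, 1.30 and 1.34 in siLox, a difference of -1.28 (SE 0.07, adjusted p = 0.00013 with limma). Its 7 probes did not move alike: they ranged from -1.28 to 0.22. Without scr replicate 3 or siLox replicate 2 or 3, 17 genes of the transport list fell, and without siLox replicate 4, 29.

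The ER stress element, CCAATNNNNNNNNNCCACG, is bound by Atf6 and Xbp1 together with NF-Y. It was found, on both strands, in 9 of 42 promoters of the ER folding list (21.4%), in 0 of 53 of the transport list, and in 37 of all promoters (0.113%). Of the 9 genes with a match, 7 fell and 0 rose (median -0.37). Over the whole folding list, 21 of 42 fell and 2 rose (median -0.25), and over all genes 18.8% fell and 16.2% rose. Canx, the lectin chaperone calnexin, fell by 0.56 (SE 0.08), Hsp90b1 by 0.54 (SE 0.18), Dnajc3 by 0.47 (SE 0.12) and Pdia6 by 0.44 (SE 0.11). Hspa5, the chaperone BiP, differed by 0.08 (SE 0.10, adjusted p = 0.55) and Creld2 by -0.22 (adjusted p = 0.0613). The promoter of Canx is shown for the element (capitals), as the member with the largest difference among those with a match, at chr11:50325674-50325923 on the minus strand.
Canx: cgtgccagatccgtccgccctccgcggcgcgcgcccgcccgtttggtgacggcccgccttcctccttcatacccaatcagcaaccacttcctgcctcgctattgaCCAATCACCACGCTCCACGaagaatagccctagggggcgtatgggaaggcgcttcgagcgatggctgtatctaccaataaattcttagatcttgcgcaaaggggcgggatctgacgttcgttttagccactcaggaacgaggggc
The element begins 145 bases before the start. Here too a match describes the letters only.

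**Figure D3:**
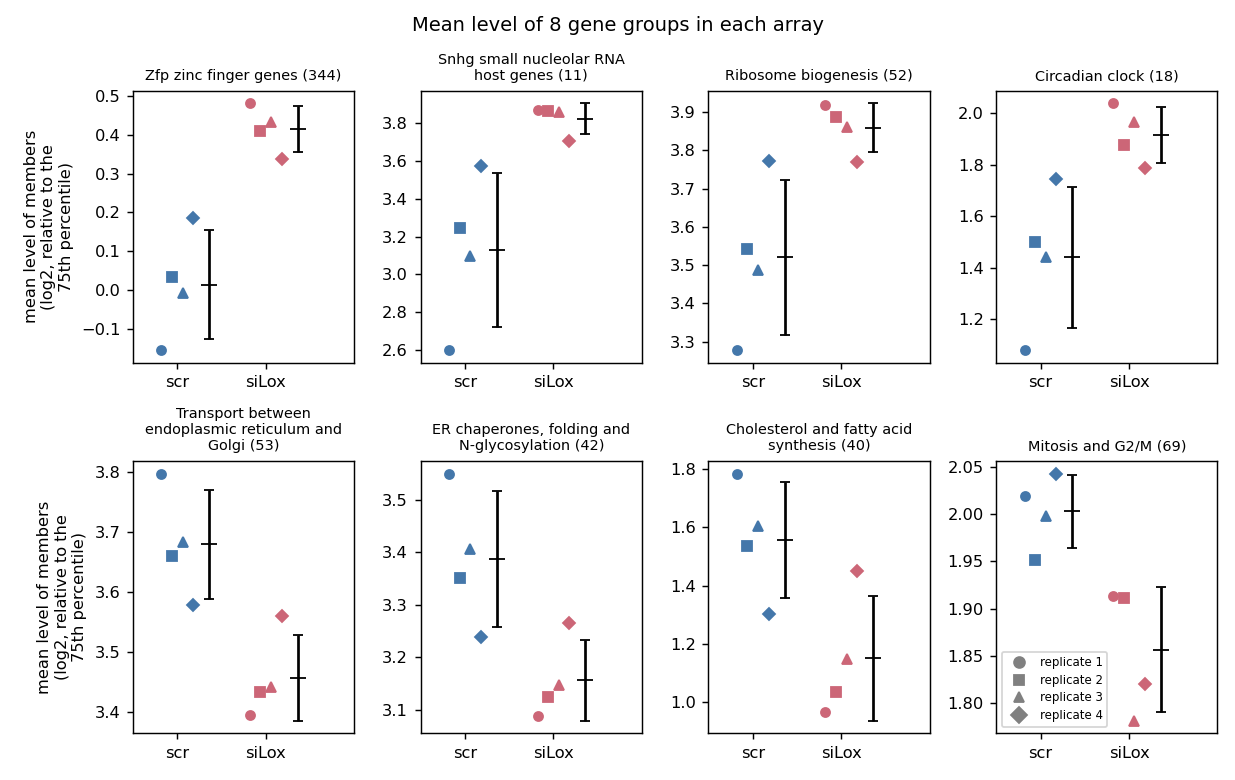
Mean level (log2, relative to the 75th percentile) of the members of 8 gene groups in each array, with the number of genes tested in brackets, scr in blue, siLox in red, a symbol per replicate number and mean ± SD (n = 4) beside each group. The Zfp, Snhg, clock, transport and mitosis means do not overlap, and in most panels scr replicate 4 is the control nearest to siLox.

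Lipid synthesis genes fell. Of 40 genes of cholesterol and fatty acid synthesis, 18 fell and 0 rose (median -0.38, background 18.8% and 16.2%). Abca1, the exporter of cholesterol, fell by 1.32 (SE 0.20), from 0.94, 0.44, 0.66 and 0.19 to -1.06, -0.81, -0.88 and -0.31. Scd2, a stearoyl-CoA desaturase, fell by 1.15 (SE 0.29), and Dhcr7, a late enzyme of cholesterol synthesis, by 0.88 (SE 0.15). The sterol regulatory element, TCACNCCAC, was found on either strand in 1 of 36 promoters of this list (2.78%) and in 1.05% of all promoters. The list's mean was 1.79, 1.54, 1.60 and 1.30 in scr and 0.96, 1.04, 1.15 and 1.45 in siLox, and siLox replicate 4 lay among the controls. Without scr replicate 3 or siLox replicate 1 or 2, 6 fell; without scr replicate 1 or 2 or siLox replicate 3, 9 or 10; and without siLox replicate 4, 24. Of 42 genes of the citric acid cycle and fatty acid oxidation, 16 fell and 1 rose (background 18.8% and 16.2%). Without scr replicate 3 or siLox replicate 2, the number that fell was 10. Acadm, a mitochondrial acyl-CoA dehydrogenase, fell by 0.61 (SE 0.12) and Acsl1, which activates fatty acids, by 0.54 (SE 0.07). Among 77 subunits of oxidative phosphorylation, 14 fell and 2 rose, against a background of 18.8% and 16.2%, and between 5 and 8 fell without scr replicate 2 or 3 or siLox replicate 1, 2 or 3. Uqcr11, a subunit of complex III, fell by 0.37 (SE 0.09).

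The enzyme Taldo1, transaldolase of the pentose phosphate pathway, stood out among the metabolic genes. It was at 6.09, 6.32, 6.09 and 6.52 in scr and at 7.54, 7.55, 7.74 and 7.74 in siLox, a difference of 1.39 (SE 0.11, adjusted p = 0.00045 with limma). In its list of hypoxia and glycolysis genes, 4 of 39 rose and 11 fell (background 16.2% and 18.8%), and between 3 and 7 fell without any array other than replicate 4 of either group. Eno2, an enolase, rose by 1.27 (SE 0.35), while Pfkm, a phosphofructokinase, fell by 0.70 (SE 0.13) and Pdk2 by 0.80 (SE 0.22). Of 29 genes of the ATF4 amino acid response, 14 fell and 4 rose (background 18.8% and 16.2%). Slc7a11, the cystine importer, rose by 0.93 (SE 0.11), from between -1.96 and -1.75 to between -1.14 and -0.73, and Ppp1r15a, which restores translation after stress, by 1.02 (SE 0.29), whereas Vldlr fell by 0.89 (SE 0.24). The number that fell was 1 without scr replicate 3 or siLox replicate 1, 2 or 3, 3 without scr replicate 2 and 5 without scr replicate 1. Psat1, the serine synthesis enzyme, fell by 0.58 (SE 0.14), while Shmt1, of folate metabolism, rose by 0.62 (SE 0.19). Among 36 genes of serine, one-carbon and nucleotide synthesis, 10 rose and 6 fell (background 16.2% and 18.8%), and between 3 and 5 rose without any array other than replicate 4 of either group.

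Redox and metal genes fell more often than they rose. Of 43 genes of NRF2 and redox defence, 19 fell and 6 rose (background 18.8% and 16.2%). Gstt1, a glutathione transferase, fell by 1.24 (SE 0.25), Aldh1a1, a retinal dehydrogenase, by 1.13 (SE 0.13), Sod3, the extracellular superoxide dismutase, by 1.04 (SE 0.32) and Ephx1, an epoxide hydrolase, by 0.82 (SE 0.12). Of 31 genes of metal and iron handling, 15 fell and 3 rose (background 18.8% and 16.2%). Slc40a1, the iron exporter ferroportin, fell by 1.04 (SE 0.14), the zinc importer Slc39a10 by 0.73 (SE 0.10), and the copper importer Slc31a1 by 0.67 (SE 0.08), from 2.94, 2.88, 2.78 and 2.65 to 2.08, 2.13, 2.10 and 2.27, without overlap. Hmox1, haem oxygenase, rose by 0.77 (SE 0.23). Without scr replicate 2 or 3 or siLox replicate 1, 2 or 3, between 9 and 11 of the redox genes fell, and without scr replicate 4, 25. Of 64 lysosomal genes, 24 fell and 3 rose (background 18.8% and 16.2%). Ctsk (cathepsin K) fell by 0.94 (SE 0.16) and the peptidase Tpp1 by 0.81 (SE 0.09). Ctss (cathepsin S) rose by 1.02 (SE 0.30) and the proton pump subunit Atp6v1b2 by 1.04 (SE 0.16). Between 11 and 15 lysosomal genes fell when any array other than replicate 4 of either group was left out.

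Genes of mitosis fell by small amounts. Of 69 genes of mitosis and G2/M, 26 fell and 2 rose (median -0.16, background 18.8% and 16.2%). Cenpf, a kinetochore protein above background on 2 of 4 siLox arrays, fell by 0.62 (SE 0.16), Ccnb2, a B-type cyclin, by 0.56 (SE 0.08) and Anln, the cytokinesis scaffold anillin, by 0.45 (SE 0.07), while Plk4, the kinase that starts centriole duplication, rose by 0.49 (SE 0.11). Ccnb2 was at 4.31, 4.09, 4.22 and 4.02 in scr and at 3.51, 3.69, 3.55 and 3.63 in siLox, without overlap. The mean of the list ranged over 1.95 to 2.04 in the scr arrays and 1.78 to 1.91 in the siLox arrays, and here scr replicate 4 was the highest control. Without siLox replicate 3, 12 fell, and without scr replicate 3, 14. Of 59 genes of G1/S and DNA replication, 12 fell and 5 rose (background 18.8% and 16.2%), with a median of -0.01 and list means that overlapped between the groups. The number that rose was 1 to 3 without scr replicate 2 or 3 or siLox replicate 1, 2 or 3, and 9 without scr replicate 4. Ccnd1, cyclin D1, which links growth factors to the cell cycle, fell by 1.06 (SE 0.16), from 6.20, 5.71, 5.86 and 5.39 to 4.60, 4.83, 4.68 and 4.80. Ccne1 fell by 0.69 (SE 0.08) and Ccnd3 by 0.60 (SE 0.12), whereas the replication factor Mcm10 rose by 0.61 (SE 0.13). Of 35 p53 targets, 10 rose and 7 fell (background 16.2% and 18.8%), among them Ddb2 (1.07, SE 0.27), Perp (-0.69, SE 0.08) and Trp53inp1 (-0.94, SE 0.18). Of these targets, 5 or 6 rose without scr replicate 3 or siLox replicate 1, 2 or 3. In turn, 4 fell without scr replicate 2 or 3 or siLox replicate 2 or 3.

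The cell cycle homology region, TTTGAA, recruits the DREAM complex and its partners to promoters of G2/M genes. It was found on either strand in 24 of 65 promoters of the mitosis list (36.9%) and in 5252 of all 32851 promoters, and the CCAAT box in 46 of 65 (70.8%) and 33.9%. Of the 22 genes with TTTGAA, 11 fell and 0 rose (median -0.21), and of the 41 with CCAAT 21 fell and 0 rose (median -0.20). Over the whole mitosis list, 26 of 69 fell and 2 rose (median -0.16), and over all genes 18.8% fell and 16.2% rose. The promoter of Ccnb2 is shown as that of the member with the largest difference among those with TTTGAA (capitals), at chr9:70421555-70421804 on the minus strand.
Ccnb2: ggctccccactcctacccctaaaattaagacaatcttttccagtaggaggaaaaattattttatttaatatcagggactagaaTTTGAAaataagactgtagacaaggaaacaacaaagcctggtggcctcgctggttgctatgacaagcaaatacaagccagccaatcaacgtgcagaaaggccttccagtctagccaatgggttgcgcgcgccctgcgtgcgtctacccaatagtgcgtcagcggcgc
The match begins 167 bases before the start. It describes the letters only, and its use in these cells was not tested.

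Adhesion, cytoskeleton and membrane traffic included many genes that fell. Of 56 genes of the actin and microtubule cytoskeleton, 27 fell and 4 rose (background 18.8% and 16.2%). Cfl2, the actin-severing protein cofilin 2, fell by 0.52 (SE 0.05), from between 4.53 and 4.63 to between 4.03 and 4.15, Arpc5, of the Arp2/3 complex, by 0.55 (SE 0.10) and Septin4 by 0.82 (SE 0.21). This list depends on the scaling: with quantile normalization 15 fell. Of 31 integrins and focal adhesion genes, 13 fell and 2 rose (background 18.8% and 16.2%). Itga1, the alpha 1 chain of a collagen receptor, fell by 1.09 (SE 0.26), Itga11, of another collagen receptor, by 0.89 (SE 0.28), and the adaptor Lims1 by 0.64 (SE 0.11), from 4.21, 4.53, 4.58 and 4.71 to 3.71, 3.93, 3.89 and 3.94. Of 39 genes of endocytosis and caveolae, 16 fell and 2 rose (background 18.8% and 16.2%). Ehd2, which stabilises caveolae, was at -0.96 (SE 0.17) and Cav2 at -0.92 (SE 0.16). Between 11 and 16 cytoskeleton genes fell when any array other than replicate 4 of either group was left out, and 8 adhesion genes without scr replicate 3 or siLox replicate 2.

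**Figure D4:**
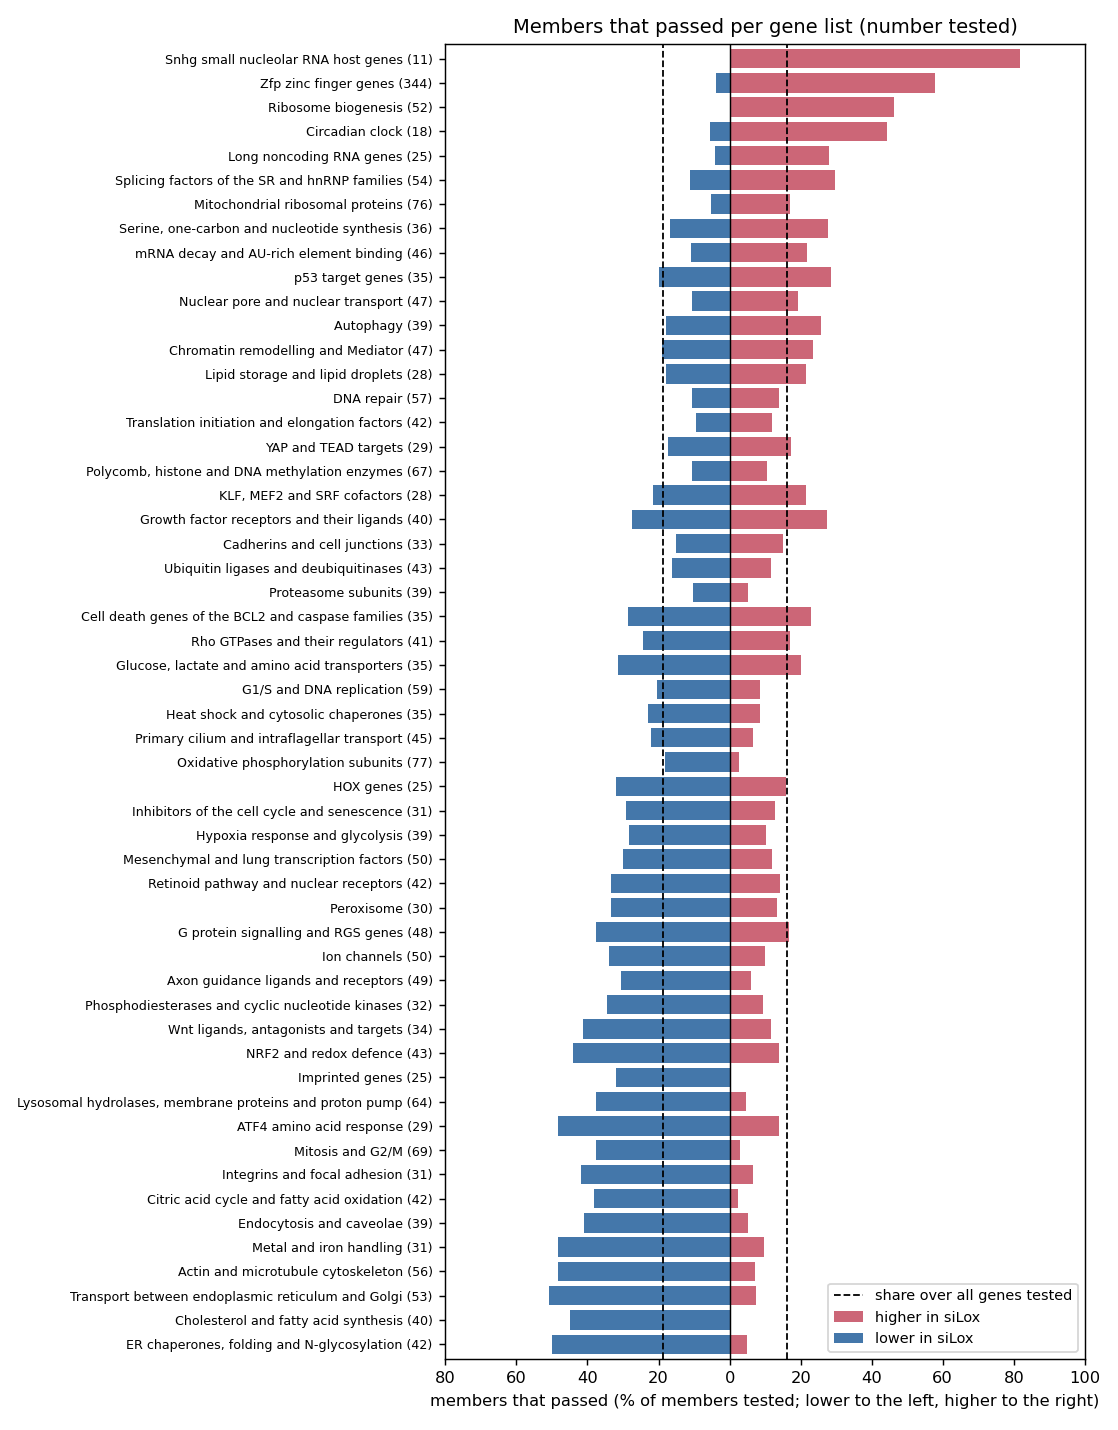
Share of the members tested (%, number in brackets) that rose (red, to the right) or fell (blue, to the left) in siLox, for the gene lists with 25 or more members tested and the Snhg and clock groups. Dashed lines mark 16.2% higher and 18.8% lower, the shares over all 19197 genes, and the Zfp and Snhg groups were picked after their values had been seen.

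Signalling genes moved both ways. Of 34 Wnt ligands, antagonists and targets, 14 fell and 4 rose (background 18.8% and 16.2%). The ligand Wnt11 rose by 1.38 (SE 0.32), while Rspo2, which amplifies Wnt signals, fell by 1.36 (SE 0.18). Dkk3 fell by 1.34 (SE 0.35) and Nkd1, a feedback inhibitor, by 1.24 (SE 0.23). Of 40 growth factor receptors and ligands, 11 rose and 11 fell (background 16.2% and 18.8%). In that list 6 or 7 rose without scr replicate 3 or siLox replicate 2 or 3. Between 5 and 7 fell when any array other than replicate 4 of either group was left out. Areg, a ligand of the EGF receptor, rose by 1.47 (SE 0.21; above background on 2 of 4 scr arrays, so that the size rests in part on signals near background) and Gdnf, a ligand of the Ret complex, by 0.92 (SE 0.14), from 0.71, 0.94, 1.02 and 1.37 to 2.04, 2.07, 1.83 and 1.79. Vegfd, a lymphatic growth factor, fell by 1.09 (SE 0.19). Of 18 genes of the insulin-like growth factor axis, 5 fell and 0 rose (background 18.8% and 16.2%), including Igf1 (-0.76, SE 0.15) and Igf1r (-0.45, SE 0.09). The share of this list that passed, 27.8%, was below the 35.0% of all genes. In it 3 fell without scr replicate 3 or siLox replicate 1, 2 or 3, and 8 without siLox replicate 4. Of 21 MAP kinase feedback inhibitors, 4 rose and 6 fell (background 16.2% and 18.8%), and 3 fell without scr or siLox replicate 3. The phosphatase Dusp16 rose by 1.40 (SE 0.16). Dusp1 fell by 0.86 (SE 0.10), from between 3.05 and 3.48 to between 2.31 and 2.41. Of 29 YAP and TEAD targets 5 rose and 5 fell (background 16.2% and 18.8%), and 2 or 3 rose without any array other than replicate 4 of either group. In this list Wwtr1, the coactivator TAZ, fell by 0.79 (SE 0.13). Between 4 and 7 Wnt genes fell when any array other than replicate 4 of either group was left out.

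Hedgehog, Notch and G protein genes are described by their members. Gli1, a transcription factor and target of hedgehog signalling, rose by 1.81 (SE 0.55), from -3.99, -1.91, -1.96 and -0.96 to -0.32, -0.33, -0.30 and -0.65, while Smo, the signal transducer, fell by 0.36 (SE 0.11), Gli2 by 0.88 (SE 0.25) and Gas1, a coreceptor, by 0.39 (SE 0.10). The rise of Gli1 lost its call without scr replicate 2 (adjusted p = 0.0632 with limma), scr replicate 3 or any siLox array. The calls of Smo and Gli2 were lost without any array other than replicate 4 of either group, and that of Gas1 without scr replicate 2 or 3. Of 21 Notch genes, 5 fell and 2 rose (background 18.8% and 16.2%; 3 fell without siLox replicate 2), among them the protease Adam10 (-0.81, SE 0.11) and the receptor Notch3 (-0.80, SE 0.17). Of 48 genes of G protein signalling, 18 fell and 8 rose (background 18.8% and 16.2%). Adgrd1, an adhesion receptor, fell by 1.42 (SE 0.37), the adenosine receptor Adora2a by 1.39 (SE 0.19), and Rgs5, a regulator of G protein signalling marking pericytes, by 1.34 (SE 0.25), while Rgs16 rose by 1.35 (SE 0.38). Adgrd1 and Adora2a were each above background on 3 of 4 siLox arrays. Of 32 phosphodiesterases and cyclic nucleotide kinases, 11 fell and 3 rose (background 18.8% and 16.2%). Of 50 ion channels, 17 fell and 5 rose (same background), and 11 fell without siLox replicate 2. The potassium channel Kcnma1, not well above background on any siLox array, was at least 1.60-fold lower. The adenylate cyclase Adcy9 fell by 0.97 (SE 0.16). Of 25 HOX genes, 8 fell and 4 rose (background 18.8% and 16.2%). Hoxb6 was at -0.88 (SE 0.12), from between 2.33 and 2.73 to between 1.45 and 1.90. Without scr replicate 2 or 3 or siLox replicate 1 or 2, the HOX genes that fell numbered 5.

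The genes with the largest rises, among those above background on all 8 arrays and without overlap, were mixed in function, and most of those outside the zinc finger family had widely spaced controls. Madcam1, an adhesion molecule for lymphocytes, rose by 2.36 (SE 0.61, adjusted p = 0.0216 with limma), or 5.12-fold, from -2.47, 0.10, -0.21 and 0.81 to 2.08, 1.90, 2.01 and 1.65. Its call was lost without scr replicate 3 (adjusted p = 0.0501) or without siLox replicate 1, 2 or 3. Lce1l, a late cornified envelope gene, rose by 2.01 (SE 0.18), from -3.29, -2.73, -3.19 and -2.54 to -0.65, -1.03, -0.93 and -1.13, with a clear gap. Akr1c19, an aldo-keto reductase, rose by 2.04 (SE 0.37), and Vgf, a neuropeptide precursor, by 2.00 (SE 0.33). Cdh22, a cadherin, rose by 1.96 (SE 0.52), Zmynd15 by 1.93 (SE 0.56), Egr4, an immediate early transcription factor, by 1.83 (SE 0.60), Cd300lf by 1.78 (SE 0.50), Stmn4, a stathmin, by 1.78 (SE 0.47), Ccdc184 by 1.76 (SE 0.30) and Ankrd33b by 1.74 (SE 0.50). Of the 3 Ankrd33b probes, the dimmest went the other way, with a difference of -0.75 (adjusted p = 0.0312 over all probes, limma). In 8 of these 11 genes scr replicate 1 was lowest by more than 1; Lce1l, Akr1c19 and Ccdc184 were the exceptions.

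Among genes above background on all 8 arrays and without overlap, the largest falls after Lox were these. Rarres1, a retinoid-responsive gene, fell by 1.82 (SE 0.28), from 0.24, -0.15, -0.19 and -0.79 to -2.44, -2.27, -2.12 and -1.35. Clca3a2 and Clca3a1, neighbours on chromosome 3 of the chloride channel accessory family, fell by 1.72 (SE 0.28) and 1.48 (SE 0.30). Being near copies, they may share probe signal. Adra1d, an alpha 1 adrenoceptor, fell by 1.66 (SE 0.19), the carboxylesterase Ces2e by 1.57 (SE 0.19), C1qtnf1 by 1.51 (SE 0.27), Pkia, an inhibitor of protein kinase A, by 1.48 (SE 0.27), and Cbr2, a carbonyl reductase, by 1.48 (SE 0.22). Cobl, an actin nucleator, fell by 1.46 (SE 0.14), from 1.72, 1.34, 1.53 and 1.06 to -0.05, 0.11, -0.19 and -0.05. Nkain4 fell by 1.46 (SE 0.25), the small GTPase Diras2 by 1.42 (SE 0.23), Serpinb9, an inhibitor of granzyme B, by 1.42 (SE 0.17) and Gstm6 by 1.41 (SE 0.26).

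**Figure D5:**
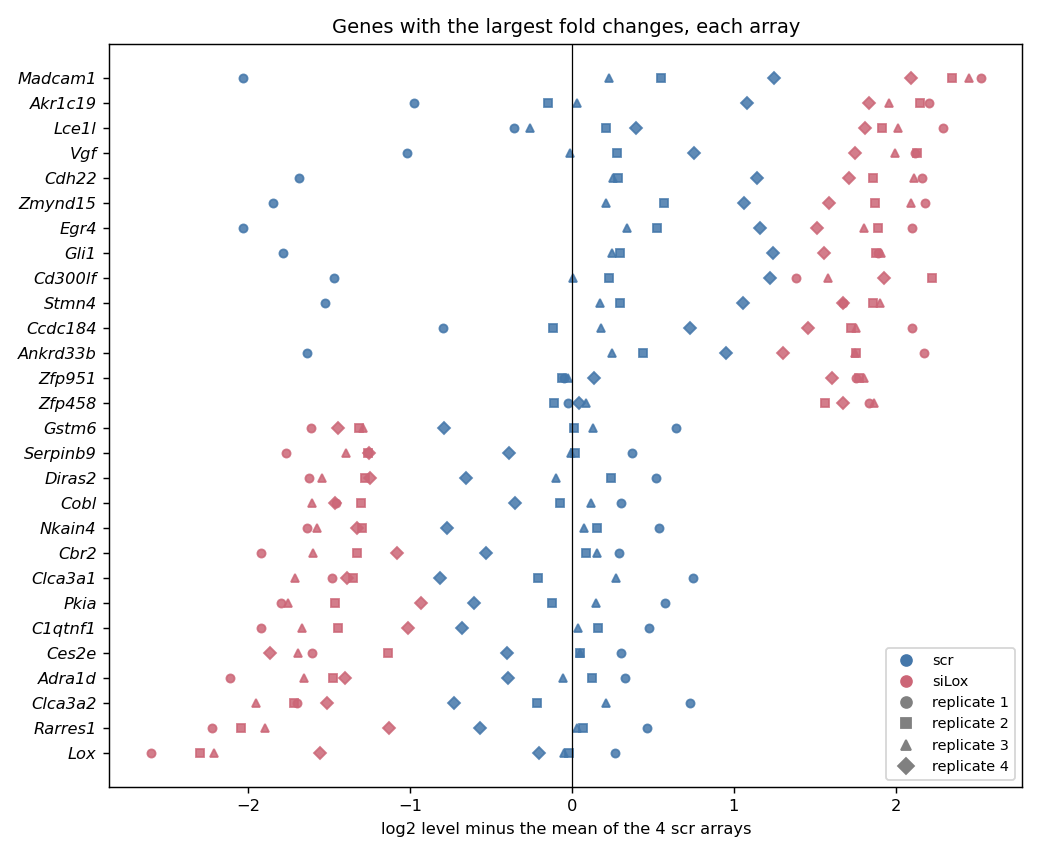
Level of each array (log2) minus the mean of the 4 scr arrays, for the genes with the largest rises and falls among those above background on all 8 arrays whose groups do not overlap (scr blue, siLox red, a symbol per replicate number). Zfp951 and Zfp458 have closely spaced arrays, while the controls of Madcam1 and Egr4 spread over more than 3.

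Some genes fell evenly across the arrays. Mbp, known for myelin, fell by 0.76 (SE 0.06), Naa30, an N-terminal acetyltransferase, by 0.68 (SE 0.05), Rps6kb2, a ribosomal S6 kinase, by 0.74 (SE 0.06) and Pctp, a phosphatidylcholine transfer protein, by 1.38 (SE 0.10). Fgf10, the growth factor by which lung mesenchyme signals to epithelium, was low but fell evenly, from -2.06, -2.15, -2.04 and -2.12 to -2.78, -2.71, -2.85 and -2.71 (difference -0.67, SE 0.06). Fbxo32, the ubiquitin ligase atrogin-1, rose as evenly, from between -1.59 and -1.49 to between -0.91 and -0.87.

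A total of 20 genes were well above background on all siLox arrays and on 0 scr arrays, and 26 the other way round. Their folds are lower bounds, taken against the dimmest signal above background. Pmfbp1, a gene of sperm development, was at least 4.85-fold higher in siLox (levels -2.93, -1.41, -3.69 and -2.54), Tcp10b at least 2.09-fold, the B-cell factor Spib at least 2.05-fold and Krtap16-3 at least 1.98-fold. Lrrc4, a synaptic adhesion protein, was at least 2.81-fold lower, Nap1l5 at least 2.68-fold, Tnfrsf18 at least 2.41-fold and Rai2 at least 2.31-fold.

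Markers of other cell types were counted in the same way, and their part in the results above was not tested. In a bulk sample, fewer cells of a type and less RNA per cell cannot be told apart. Of 17 fibroblast identity genes, 10 fell and 0 rose (median -0.38, background 18.8% and 16.2%). Lum fell by 1.20 (SE 0.40), Thy1 by 0.84 (SE 0.15), Twist2 by 0.48 (SE 0.07) and Col1a2 by 0.46 (SE 0.11). Between 3 and 5 fell when any array other than replicate 4 of either group was left out. Their mean level ran from 4.34 to 4.65 in scr and from 3.85 to 4.39 in siLox. Of 18 leukocyte and macrophage markers tested (of 22 listed), 3 rose and 1 fell (median 0.50, background 16.2% and 18.8%). Without scr replicate 4, 14 of these markers rose. Their mean level ran from -1.17 to -0.17 in scr and from -0.27 to 0.02 in siLox. Marco, a scavenger receptor, rose by 1.08 (SE 0.15), Aif1 by 0.98 (SE 0.31) and Mrc1 by 0.65 (SE 0.10). Of 10 mesothelial markers tested, 6 fell and 1 rose (background 18.8% and 16.2%), with Gpm6a at -0.68 (SE 0.13) and Krt19 at 0.77 (SE 0.13). Among 13 markers of smooth muscle and pericytes, 7 were lower and 1 was higher (background 18.8% and 16.2%), with Pdgfrb at -0.79 (SE 0.17). Without siLox replicate 1 or 3, the number that fell was 4. Of 20 genes of Schwann cells and neurons, 7 fell and 3 rose (background 18.8% and 16.2%). S100b fell by 2.06 (SE 0.35), Syn2 by 2.31 (SE 0.46), and Nefm rose by 2.18 (SE 0.35). S100b was above background on 1 and Syn2 on 2 of 4 siLox arrays, and Nefm on 3 of 4 scr arrays, so these sizes rest in part on signals near background. Of 22 epithelial markers, 14 did not reach the tested set, and of the 8 tested 2 rose and 1 fell (background 16.2% and 18.8%).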

How the data were processed

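Total RNA of 8 samples (scr and siLox, 4 each) was hybridised to Agilent arrays with a Cy3 label. Scanner intensity values per spot were deposited; they are background-subtracted per the file headers, and came from Agilent Feature Extraction 10.7.3.1 per the submitters' processing notes. The authors' deposited matrix is on a log2 scale and quantile normalized (sorted columns differ by at most 0.000965) and served as an alternative. Other deposited columns are flags of another kind, 0 or 1 per spot.

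Log2 intensities were scaled to the 75th percentile of each array. Probes well above background on all 4 arrays of a group were kept (26528, of which 13 had no unflagged value on some array or no gene name), and the brightest stood for its gene (19197 genes, 5285 with more than 1 probe). Among the genes that passed, 1986 had more than 1 such probe. All their probes had the same sign in 86.8% of them, and all passed in that direction in 46.2%. Of 55681 probes, 28026 (50.3%) matched a RefSeq accession (GRCm38.p6), which was used for names; positions are mm9. The 8 arrays were fitted with limma 3.58.1 (lmFit, eBayes) in R 4.3.3, with Benjamini-Hochberg adjustment at 0.05, and the script was tested on simulated data. The number of arrays limits precision.

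Members, the 68 lists and their genes were chosen with earlier results of these data known, and the Zfp and Snhg groups after their values were seen. Named genes are up to 14 per side with the largest fold and 8 with the smallest p among non-overlapping, non-predicted genes above background on all 8 arrays and outside matrix and inflammation lists, up to 4 per side above background in 1 group only, up to 4 per list and the lysyl oxidases. Zfp185, Zfp91, Trim28, Setdb1 and the members named only for a promoter match (Cry1, Per1, Tef, Canx, Hsp90b1, Dnajc3, Pdia6, Hspa5 and Creld2) fall outside that rule and were chosen after their values were seen. Alternatives in scaling, background, filter, probe choice, variance model, samples and replicate block were run. Promoters are RefSeq sequences, read 250 bases upstream. The other 8 arrays were used only in 1 alternative. Some genes are not reported here.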

Additional observations from a re-analysis of the deposited data

Results flagged for a closer look

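Within each group of 4 arrays, the gap between the outermost array and its nearest neighbour was compared with the group's range (Dixon's critical value 0.829). Of 760 sets, 33 passed (4.34%), where chance gives about 1 in 20. In siLox replicate 4 these were Gli1 (level -0.65), Loxl3 (2.79), Wwtr1 (2.19), Gadd45b (6.69), Acadm (2.26), Sec23a (1.29), Nedd4l (3.64), Qars (4.57), Srsf7 (4.90), Perp (0.81), Ddb2 (-0.36), Casp6 (1.70), Xpo4 (1.38), Septin2 (5.71) and Bbs9 (-0.70), and the mean levels of the ion channel (-0.14) and Snhg (3.70) lists. In scr replicate 1 they were Spib (-6.74), Exo1 (1.70), Nup210 (-3.90) and Col1a2 (8.66), and the mean levels of the Notch (0.15) and the Polycomb, histone and DNA methylation (1.37) lists. In scr replicate 4 they were Slc7a8 (-4.05) and Hspa2 (0.53), and the mean levels of the retinoid and nuclear receptor (1.33) and G1/S (2.69) lists. Single arrays stood apart for Nap1l5 (-5.07) and Cd3e (-1.03) in siLox replicate 1, Gap43 (-0.92) in siLox replicate 2, and Ehhadh (-2.43), Anln (4.53) and Higd1b (-4.17) in siLox replicate 3.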

How the results depend on the processing

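The Lox difference was past the threshold in every setting run, between -2.54 and -1.93, and between -2.37 and -2.02 when 1 array was left out. The count of 6725 genes was 2940 with no filter on dim probes, 10374 with array weights, 1029 with the replicate block, 2884, 624 and 325 without replicate 1, 2 or 3 of both groups (settings added after seeing the data), and 3602 to 8617 when 1 array was left out. The genes that rose numbered 1425 with no filter, 5008 with array weights, 575 with the block, 1494, 368 and 212 without replicate 1, 2 or 3 of both groups, and 1651 to 4172 when 1 array was left out. Those that fell numbered 1515 with no filter, 454 with the block, 1390, 256 and 113 without those replicates, and 1951 to 4445 when 1 array was left out. Of 564 differences of at least 1, normexp background left 197, the block 205, and omission of replicates 1, 2, 3 or 4 of both groups 219, 137, 88 and 1159; when 1 array was left out the count was 314 to 926. Apart from the smaller number of arrays, and the 34752 genes tested with no filter, the cause was not tested. Same-numbered arrays correlated at -0.39 to -0.01 in their deviations, and arrays of unlike number at -0.12 to 0.35. These values cannot show whether same-numbered samples shared a culture or animal, since the arrays of a group also spread along the axis that separates the groups. The labels do not say that the numbers pair the samples, and the block is given only here. Of 315 named genes that passed, 268, 242 and 118 lost the call without replicate 3, 2 or 1 of both groups, 209 under the block, 121 with no filter and 5 to 103 when 1 array was left out; 0 changed sign in the settings run. Signal over background limits the genes seen on 1 group of arrays to bounds.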
